A study of Mus musculus with 5 samples.

Results

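SOX11 bound 4172 promoter sites at which the SOX4 peak list held no overlapping peak. These SOX11-only promoter sites were chosen by 3 properties of the deposited SOX11 peak list: a place past the first 10% of the rows of the list, no overlap of 1 bp or more with a SOX4 peak, and a peak centre from 1000 bp upstream to 100 bp downstream of the transcription start of a protein-coding gene. They made up 19.6% of the 21270 SOX11 peaks and 84.3% of the 4951 SOX11 peaks in promoters. Over the whole list, 17939 of the 21270 peaks met the same rules of list place and SOX4 overlap. That is about the same share as in promoters, so it is no trait of promoter peaks. The remaining promoter peaks were 571 that overlapped a SOX4 peak and 208 without SOX4 in the first 10% of the rows. What the order of the list stands for is not given in the sources used here.

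The peaks came from ChIP-seq of primary keratinocytes of newborn mice with the genotype *Krt14-Cre;Sox11fl/fl;Sox4fl/fl* (dcKO). The labels give a mixed 129SvEx:C57BL/6 background, and per the methods the *Krt14-Cre* line was FVB/N. In these cells Cre driven by the keratin 14 promoter removed both *Sox11* and *Sox4*. A lentivirus brought back 1 of the factors with a FLAG tag under doxycycline control, doxycycline was given for 24 h, and chromatin was precipitated with an anti-FLAG antibody. There were 2 SOX11-FLAG libraries, 2 SOX4-FLAG libraries and 1 control library, which the labels name input in the title and IgG as the antibody. The 2 replicates of a factor were combined into 1 list of coordinates in mouse build mm9, and no peak carries a height, a score or a p-value. The sequencing depth at a site is therefore unknown, and replicates cannot be compared. The levels of induced protein are not those of the endogenous genes, and the absence of a SOX4 peak means that none was called among 2669, not that SOX4 was absent.

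SOX11 and SOX4 belong to the SoxC group, whose high-mobility-group (HMG) box binds short sequences with the core CATTGT or CTTTGT in the minor groove of DNA. Many promoters of widely expressed genes lie in CpG islands, stretches rich in G, C and unmethylated CpG dinucleotides. Such promoters often hold GC boxes, to which SP1 and related zinc finger factors bind, and sites of ETS factors, NRF1, NF-Y or YY1, and some of them are divergent, with 2 genes that start head to head on opposite strands.

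Stretches of 3 early sites show the SOX core, in capitals, close to the centre of the peak. The stretches are the earliest in list order that held a core within 25 bp of the centre and lay outside annotated exons. *Ppp1r2* encodes an inhibitor of protein phosphatase 1, *Itprip* a protein that interacts with the inositol trisphosphate receptor, and *Mdm1* a microtubule-binding protein of centrioles. The gene runs on the minus strand at *Ppp1r2* and *Itprip* and on the plus strand at *Mdm1*. Each core may be written on either strand, so that ACAAAG stands for CTTTGT.
*Ppp1r2*, chr16:31275369-31275428, plus strand: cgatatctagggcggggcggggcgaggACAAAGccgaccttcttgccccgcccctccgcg
*Itprip*, chr19:47994219-47994278, plus strand: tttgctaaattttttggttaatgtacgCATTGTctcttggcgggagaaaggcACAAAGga
*Mdm1*, chr10:117578642-117578701, plus strand: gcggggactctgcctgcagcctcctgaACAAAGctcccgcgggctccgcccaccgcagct

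A site rich in GC boxes shows another kind of sequence. A GC box was counted as GGGCGG on either strand, matches could share a base, and the capitals mark the matches. The peak at *Pip4k2b*, a phosphoinositide kinase gene that runs on the minus strand, held 12 GC boxes in 258 bp and no SOX core.
*Pip4k2b*, chr11:97606041-97606298, plus strand: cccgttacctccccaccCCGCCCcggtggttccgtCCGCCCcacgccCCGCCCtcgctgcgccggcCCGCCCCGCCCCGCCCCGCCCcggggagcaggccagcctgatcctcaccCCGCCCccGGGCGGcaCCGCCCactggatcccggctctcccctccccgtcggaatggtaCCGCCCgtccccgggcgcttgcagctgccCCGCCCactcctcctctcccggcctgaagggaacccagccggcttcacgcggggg

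Other promoter elements are shown in the earliest site of the list that held each one outside annotated exons, with the element in capitals. They are the CCAAT box of NF-Y at *Atf2*, a factor of the CREB and ATF family, the ETS motif at *Kif20b*, a mitotic kinesin, the YY1 motif at *Mdm1* and the ZNF143 motif at *Rangap1*, the activator of the Ran GTPase. The genes *Atf2* and *Rangap1* run on the minus strand, and the others on the plus strand. *Kif20b*, *Mdm1* and *Rangap1* were picked after their sequences had been searched.
*Atf2*, chr2:73730964-73731013, plus strand: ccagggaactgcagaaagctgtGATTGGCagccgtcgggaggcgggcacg
*Kif20b*, chr19:34996782-34996831, plus strand: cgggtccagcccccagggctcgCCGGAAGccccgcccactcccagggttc
*Mdm1*, chr10:117578708-117578757, plus strand: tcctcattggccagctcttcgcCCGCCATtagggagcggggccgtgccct
*Rangap1*, chr15:81560444-81560493, plus strand: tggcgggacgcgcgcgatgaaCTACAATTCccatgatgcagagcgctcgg

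The sites clustered at the transcription start. Here and below, the nearest start of a site is the nearest of the starts whose promoter, as in the selection rule, held the peak centre. The distance of the peak centre from the nearest start had a median of -50 bp, where minus is upstream, with quartiles of -149 and 0 bp, and 2781 sites (66.7%) were centred within 100 bp of it. Of all sites, 3105 (74.4%) lay upstream and 302 (7.24%) lay over 500 bp upstream. The centre of 1603 sites (38.4%) fell in an annotated exon. Position chose the sites, so these values only describe them.

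**Figure D1:**
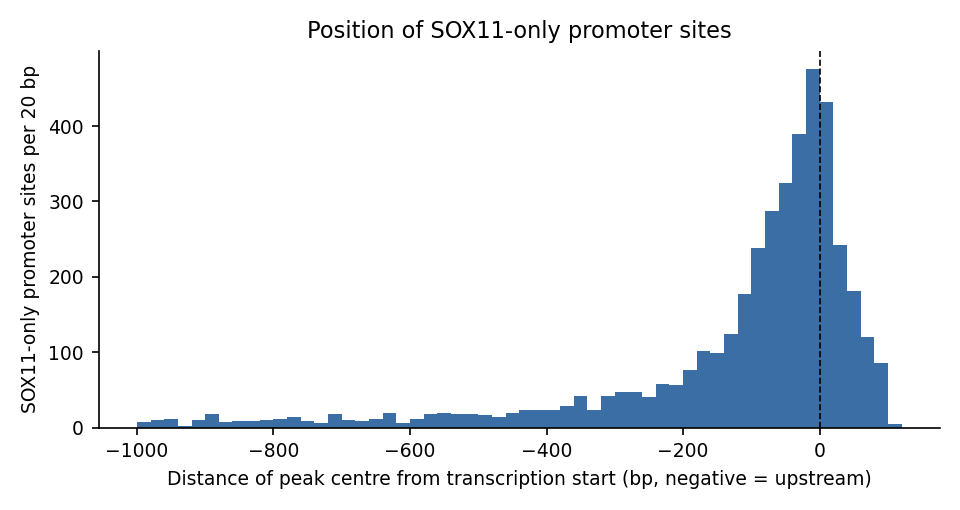
Number of SOX11-only promoter sites per 20 bp, by the distance of the peak centre from the nearest transcription start in bp (negative values are upstream, the dashed line is the start). The sites pile up around the start, with a median of -50 bp and 302 sites over 500 bp upstream.

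Some sites lay near the edges of the rule. The first site kept was that of *Atf2* at row 2132, and the last promoter site without SOX4 that the row limit left out was *Pdss1*, an enzyme gene of ubiquinone synthesis, at row 2106. At *Snx2*, a sorting nexin gene, the gap to the nearest SOX4 peak was 10 bp, whereas at *Cdk19*, a kinase gene of the Mediator complex, a SOX4 peak covered 11 bp and the site was counted as shared. The site of *Rbks*, ribokinase, was centred at -1000 bp and was kept, and that of *Tbc1d15*, a Rab regulator, was centred at -1001 bp and was not. Few sites were of this kind: the median gap to a SOX4 peak was 168926 bp, and 54 sites (1.29%) had a SOX4 peak within 500 bp.

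The first 5 sites of the list differed in their sequence. At *Atf2* the peak on chromosome 2 from 73730949 to 73731206 was centred at -382 bp from the start and held 1 GC box and 1 CCAAT box. The peak of *Tnks1bp1*, a tankyrase-binding protein, on chromosome 2 from 84890954 to 84891211, held a CCAAT box and no GC box, and that of *Arhgap40* on chromosome 2 from 158338263 to 158338520, held 1 AP-1 motif and 1 GC box. A SOX core was present in 2 of the 5, *Ppp1r2* on chromosome 16 from 31275265 to 31275522 and *Srcrb4d*, a scavenger receptor cysteine-rich gene, on chromosome 5 from 136438667 to 136438924, at 5 and 4 bp from the centre. The last 2 sites, at the zinc finger gene *Zfp58* in row 21239 and at *Prl8a1*, a prolactin family hormone of the placenta, in row 21267, held none of the SOX, AP-1, GC box, ETS, CCAAT, NRF1, YY1 or CRE motifs.

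At the level of genes, 4037 genes were nearest to a site and 3905 of them had 1 site. Of the sites, 407 (9.76%) lay in the promoters of more than 1 gene. A pair of sites was found at 129 genes and 3 sites at 3 genes, *Tpd52*, *Mdm2* and *Rere*. At *Mdm2*, the ubiquitin ligase of p53, the sites were centred at -905, -22 and -75 bp from their nearest starts, with 49.6%, 73.6% and 69.0% G and C, and a SOX core was present in the first and second of these and not in the third. At *Rere*, which encodes an atrophin family co-regulator, all 3 sites held 1 SOX core each. Another SOX11 peak was centred within 2000 bp of 354 sites (8.49%). By chromosome, the share of protein-coding genes with a SOX11-only promoter site ranged from 9.23% on the X chromosome to 24.4% on chromosome 11.

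The promoters were rich in CpG. Each promoter was classed from its sequence: a high-CpG promoter held a 500 bp stretch, between 700 bp upstream and 200 bp downstream of the start, with over 55% G and C and an observed to expected ratio of CpG over 0.75, and a low-CpG promoter had no stretch with a ratio over 0.48. Of the sites, 2696 (64.6%, 95% Wilson interval 63.2 to 66.1%) lay at high-CpG, 1017 (24.4%) at intermediate and 459 (11%) at low-CpG promoters. Of 16744 protein-coding genes with no SOX11 or SOX4 peak in a promoter, 25.4% were of the high-CpG class at their 5′-most start. The difference was 39.2 percentage points (95% interval 37.6 to 40.8). Sites were classed at the start nearest to the peak. With the start of most transcripts taken for both, an alternative added after seeing the data, the shares were 62.6% and 26.7%. With the usual rule for an island in place of the classes, the shares were 80.1% and 38.7%. The peaks themselves had a median of 64.7% G and C (quartiles 57.8 and 70.5%) and 21 CpG dinucleotides.

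The promoter peaks shared with SOX4 were much like these sites in base composition. Their median G and C was also 64.7%, and 68.5% of them lay at high-CpG promoters, with a difference of -3.86 points between SOX11-only and shared sites (95% interval -7.81 to 0.323). The interval takes in 0 and differences of several points, so the shares could not be told apart. Intervals and tests over peaks here cover only the counting error, and peaks are no replicates of a condition.

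Because G and C content alone changes how often a motif is found, motifs were compared within strata of 2 percentage points of G and C between the sites and 1 window of 258 bp per gene without a peak. The SOX core, CATTGT or CTTTGT, was present in 1269 sites (30.4%, Wilson interval 29.0 to 31.8%), against 12.2% of windows standardised to the G and C content of the sites. The Mantel-Haenszel odds ratio was 3.50 (95% interval 3.19 to 3.83, Cochran-Mantel-Haenszel chi-square test, adjusted p = 1.47e-170 by the Benjamini-Hochberg method over 16 motifs). CTTTGT was found in 23.0% of the sites and CATTGT in 9.01%. In the sites with 1 core it lay on the strand of the gene in 537 and on the opposite strand in 557. The odds ratio was 4.58 (interval 3.95 to 5.31) where only high-CpG promoters were compared.

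AP-1 motifs, TGAGTCA or TGACTCA, which FOS and JUN dimers bind, were rare at these sites. They were present in 264 sites (6.33%, interval 5.63 to 7.11%), yet in only 2.51% of windows at the same G and C content (odds ratio 2.81, interval 2.39 to 3.31, adjusted p = 3.57e-40, the same chi-square test). Within high-CpG promoters the odds ratio was 1.61 (interval 1.13 to 2.30). The AP-1 share of SOX11-only peaks away from promoters was far higher, at 33.2% of 6569 peaks in genes and 38.8% of 7198 peaks between genes (odds ratio 0.136 for promoter sites against peaks in genes, Fisher's exact test, adjusted p = 3.22e-262). Those peaks are poorer in G and C, with medians of 50.0% and 48.4%, against 64.7% at the sites, and the Fisher tests did not match for it. Within strata of G and C content, a comparison added after seeing the data, the odds ratios were 0.343 (interval 0.294 to 0.401) and 0.266 (interval 0.228 to 0.312). The SOX core was also less frequent in promoter sites than in SOX11-only peaks in genes (61.3%) and between genes (60.3%), with odds ratios of 0.275 and 0.288 (adjusted p = 6.64e-218 and 7.45e-211, Fisher's exact test). Within strata of G and C content the odds ratios were 0.592 (interval 0.534 to 0.657) and 0.861 (interval 0.767 to 0.966).

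GC boxes were common, but hardly more so than the base composition gave. A GC box was present in 2728 sites (65.4%, interval 63.9 to 66.8%) and in 61.6% of windows at the same G and C content, with an odds ratio of 1.29 (interval 1.18 to 1.41, adjusted p = 1.84e-08, the same chi-square test). In the central 100 bp the direction turned, with 40.8% of sites and 43.4% of windows (odds ratio 0.880, interval 0.809 to 0.957). Among high-CpG promoters the shares were 75.5% and 75.1% (odds ratio 1.03, interval 0.916 to 1.17), so no difference was detectable there. The number of GC boxes was 0 in 1444 sites, 1 in 1157, 2 in 722, 3 in 433 and 4 or more in the rest, with 6 or more in 95. Among the sites with many GC boxes were those of *Pip4k2b*, with 12, and of *Atp11b*, which encodes a phospholipid flippase, with 10.

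Among the other promoter elements, ETS, YY1 and ZNF143 motifs were more frequent at the sites than at promoters without a peak. The ETS motif CCGGAAG was present in 807 sites (19.3%) against 11% (odds ratio 1.99, interval 1.80 to 2.19, adjusted p = 2.68e-41, the same chi-square test). ATGGCGG, the YY1 motif, was present in 10.7% against 6.06% (odds ratio 1.86, interval 1.63 to 2.11, adjusted p = 3.62e-20, the same chi-square test). CTACAATTC, the ZNF143 motif, was present in 35 sites (0.839%) against 0.207% (odds ratio 4.22, interval 2.58 to 6.90, adjusted p = 7.39e-10, the same chi-square test). The ETS and YY1 differences were also found among high-CpG promoters alone, with odds ratios of 1.44 (interval 1.28 to 1.63) and 1.57 (interval 1.34 to 1.84), whereas the interval for ZNF143 there was 0.910 to 4.21 and took in 1.

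The NF-Y motif, CCAAT with a purine before it and C or G after it, was less frequent at the sites. It was present in 15.9% of them and in 18.2% of windows (odds ratio 0.859, interval 0.780 to 0.946, adjusted p = 0.00454, the same chi-square test), and among high-CpG promoters the odds ratio was 0.630 (interval 0.555 to 0.715). GCGCATGCG, the NRF1 motif, was found in 2.35% of sites and 2.76% of windows (odds ratio 0.853, interval 0.673 to 1.08, adjusted p = 0.249, the same chi-square test). Its odds ratio among high-CpG promoters was 0.633 (interval 0.486 to 0.824). TGACGT, the core of the cAMP response element, was slightly more frequent at the sites overall (odds ratio 1.17, interval 1.03 to 1.32) and slightly less so among high-CpG promoters (0.855, interval 0.736 to 0.994). GGAATG of the TEAD factors had an odds ratio of 1.2 (interval 1.07 to 1.35), and of 1.1 among high-CpG promoters, where the interval of 0.912 to 1.33 took in 1. Over all promoters the intervals of the E-box CACGTG and of the BANP, RFX, RUNX, GRHL and CACC box motifs took in 1.

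**Figure D2:**
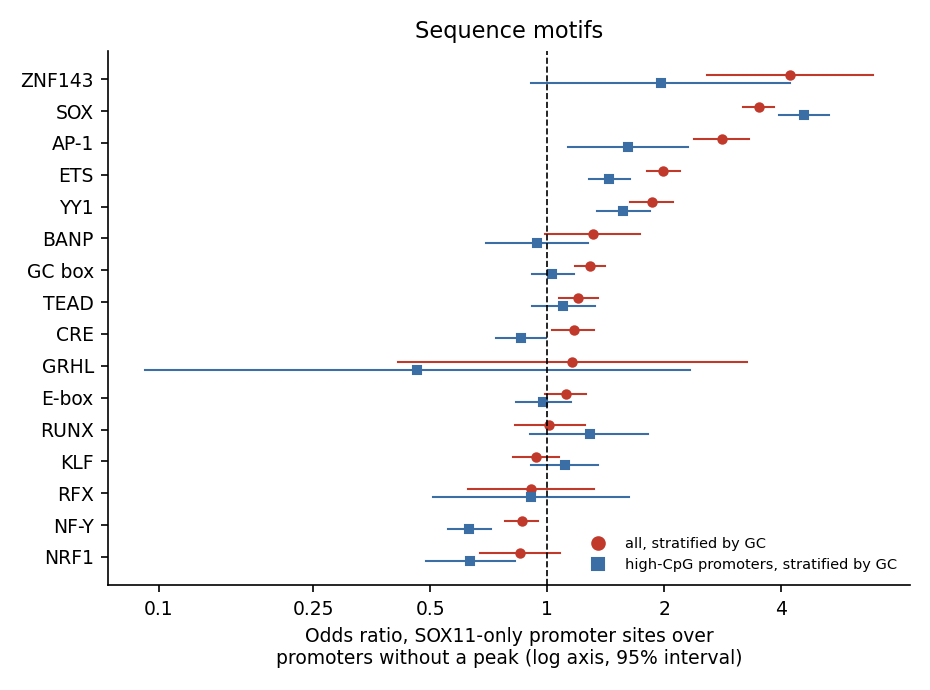
Odds ratio of each of 16 motifs in SOX11-only promoter sites over promoters without a peak, on a log axis, with 95% Mantel-Haenszel intervals over strata of G and C content; circles use all promoters and squares high-CpG promoters alone. ZNF143, SOX, AP-1, ETS and YY1 lie to the right of 1 and NF-Y to the left, and the GC box moves from 1.29 to 1.03 where high-CpG promoters are compared with each other.

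A search of all 8192 words of 7 bases, each counted with its reverse complement, ranked the same families without a chosen panel. ACAAAGG, which holds the SOX core, came first, in 8.70% of sites against 2.52% of windows standardised for G and C. The next 4 words also held CTTTGT or its complement. CCGGAAG was sixth, TGACTCA was ninth with 6.33% against 2.51%, and ATGGCGG was at rank 16. The word at the other end of the ranking, AGAGGGG, was present in 6.69% of sites and 10.0% of windows. The ranking is a description, with no test.

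The SOX core was concentrated at the centre of the peaks. Within 50 bp of the centre it occurred 2.30 times per kb, against 0.873 per kb from 200 to 500 bp away, whereas high-CpG promoters without a peak had 0.268 and 0.681 per kb, with a dip in place of a peak. Shared promoter peaks had 8.42 per kb within 50 bp and 1.04 per kb further out. The core was centred within 25 bp of the peak centre in 638 SOX11-only sites (15.3%) and 365 shared sites (63.9%). AP-1 motifs had 0.367 per kb near the centre and 0.113 further out, and 0.0774 and 0.0853 in the high-CpG promoters without a peak. The 2 sets differ in CpG class, since only 64.6% of the sites lay at high-CpG promoters. With high-CpG promoters on both sides, the odds ratio of AP-1 over the whole window was 1.61 (interval 1.13 to 2.30).

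GC boxes and ETS motifs also rose towards the centre, but they did so at promoters without a peak as well. GC boxes occurred 6.45 times per kb within 50 bp of the centre of the sites and 10.5 times per kb in the high-CpG promoters without a peak. ETS motifs were at 1.2 and 1.06 per kb, and CCAAT boxes at 0.851 and 1.89 per kb. The windows without a peak were placed at the median position of the sites, 50 bp upstream of the start, so their centre stands at a fixed distance from the start while that of the sites varies. The sites were also of all CpG classes, unlike these windows. With high-CpG promoters on both sides, a GC box was present in 75.5% of sites and 75.1% of windows, and the odds ratio of the CCAAT box was 0.630.

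**Figure D3:**
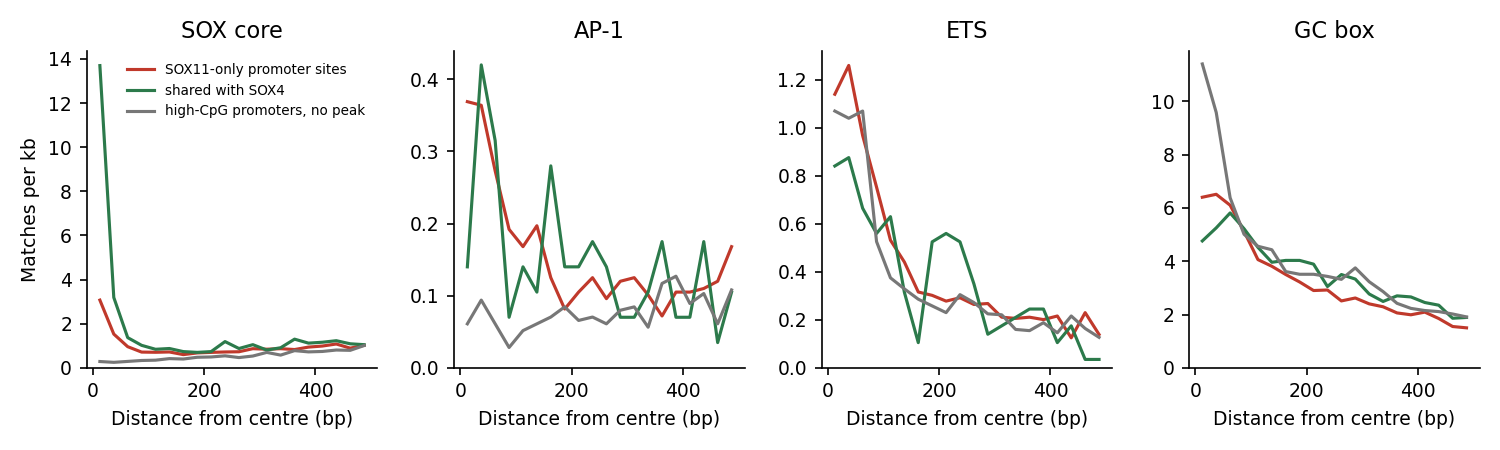
Matches per kb of the SOX core, AP-1, ETS and GC box motifs by distance from the centre of the peak or window in bp, in bins of 25 bp, for SOX11-only promoter sites (4172), promoter sites shared with SOX4 (571) and high-CpG promoters without a peak (4261). The SOX core has a central maximum of 3.07 per kb in SOX11-only sites, 13.7 per kb in shared sites and none in promoters without a peak, where the GC box has the higher centre. The SOX11-only and shared sites are of all CpG classes. The vertical scales differ between panels.

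Of the 16 motifs, the SOX core had the largest gap in share between these sites and the promoter peaks shared with SOX4. It was present in 77.4% of the shared peaks (interval 73.8 to 80.6%), an odds ratio of 0.128 for SOX11-only over shared sites (Fisher's exact test, two-sided, adjusted p = 9.71e-102). The shared peaks stand earlier in the list, and the 236 of them past the first 10% of the list had the core in 58.9% (odds ratio 0.305, p = 2.84e-18, Fisher's exact test). Compared within bins of 2000 rows of the list, the odds ratio was 0.437 (interval 0.324 to 0.590). The longer core CTTTGTTC was found in 2.76% of SOX11-only sites and 18% of shared sites. In the 208 SOX11-only promoter peaks of the first 10% of the list, 83.7% had the core.

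Other motifs differed less between SOX11-only and shared promoter sites. ETS motifs were present in 19.3% and 14.0% (odds ratio 1.47, adjusted p = 0.0157, Fisher's exact test) and TGACGT in 10.1% and 6.48% (odds ratio 1.63, adjusted p = 0.0274, Fisher's exact test). Against the shared peaks past the first 10% of the list, and within bins of 2000 rows, the ETS odds ratio was 0.902 (interval 0.640 to 1.27). GC boxes were present in 65.4% and 63.7% (odds ratio 1.07, adjusted p = 0.807, Fisher's exact test), and AP-1 motifs in 6.33% and 5.08% (odds ratio 1.26, adjusted p = 0.610). Against shared peaks past the first 10% of the list alone, of which 55.9% had a GC box, the odds ratio of the GC box was 1.49 (p = 0.00397, Fisher's exact test).

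The share of sites with a SOX core fell along the list. With the sites divided by order into 5 equal parts, 54.1%, 33.1%, 22.4%, 21.7% and 20.7% of the sites held it, while the standardised share of windows stayed between 10.9 and 13.4%. The odds ratio was 9.43 (interval 8.02 to 11.1) in the first part and 1.81 (interval 1.5 to 2.18) in the last. AP-1 motifs showed no such gradient, with 6.71% in the first and last parts and odds ratios from 2.54 to 2.90. ETS motifs were lowest in the first part, at 16.4%, and lay between 19.4 and 20.8% in the others. CCAAT boxes went from 13.4% to 18.2%, and their odds ratio from 0.692 (interval 0.564 to 0.850) to 1.02 (interval 0.849 to 1.22).

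**Figure D4:**
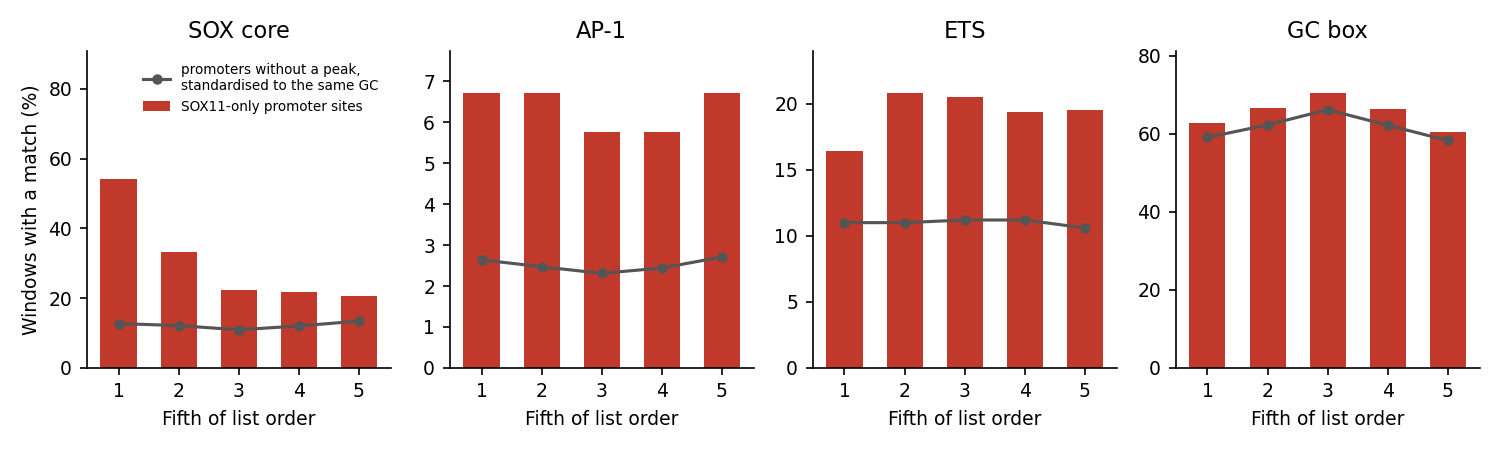
Share of SOX11-only promoter sites (bars, %) with a SOX core, AP-1, ETS or GC box motif by place in the list, in 5 equal parts, with the share of promoters without a peak standardised to the same G and C content (points and line). The SOX core goes from 54.1 to 20.7%, and the GC box stays between 60.4 and 70.4%. The vertical scales differ between panels.

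Sites with and without a SOX core differed in other ways. The 1269 sites with the core stood earlier in the list (median row 8017 against 11825 for the 2903 without it), were centred further upstream (median -104 against -38 bp) and had a lower median G and C content (59.7 against 66.3%). High-CpG promoters made up 55.2% of the former and 68.7% of the latter. The sites without a core more often held a GC box (70.8 against 53.0%) and an ETS motif (22.5 against 12.2%). AP-1 motifs were present in 9.14% of sites with a core and 5.10% of those without. These shares were not tested, since G and C content differed between the groups. No motif of the panel was found in 215 sites (5.15%).

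Divergent promoters made up 10.6% of the sites. In 444 sites the nearest start had a protein-coding start on the opposite strand within 1000 bp upstream, and the distance between the starts had a median of 142 bp (quartiles 80 and 289 bp), against 135 bp at promoters without a peak. At the same G and C content 9.76% of promoters without a peak were divergent (odds ratio 1.13, interval 1.00 to 1.28, Cochran-Mantel-Haenszel chi-square test, p = 0.0396). Promoters without a peak were taken at their 5′-most start, unlike the sites. With the 5′-most start for both, an alternative added after seeing the data, the odds ratio was 1.20 (interval 1.06 to 1.34). The direction turned among high-CpG promoters, of which 13.5% of those with a site and 18.7% of those without a peak were divergent (odds ratio 0.684, interval 0.597 to 0.785), so no single direction can be given. Among shared promoter sites 11% were divergent (odds ratio 0.960, p = 0.773, Fisher's exact test). The peak centre lay between both starts in 223 of the 444 sites (50.2%).

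Divergent sites differed from the others in their motifs, and divergent promoters without a peak differed in the same directions. ETS motifs were present in 30.2% of them and in 18.1% of the other sites (odds ratio 1.96, adjusted p = 2.26e-08 over 4 motifs, Fisher's exact test), and with strata of G and C content the odds ratio was 1.84 (interval 1.48 to 2.30). Promoters without a peak also had more ETS motifs where they were divergent, 22.8% against 6.48%. The SOX core was less frequent in divergent than in other sites, at 22.5% against 31.4% (stratified odds ratio 0.694, interval 0.543 to 0.886), and so were AP-1 motifs, at 2.93% against 6.73% (0.492, interval 0.278 to 0.871). The YY1 motif was present in 14.6% and 10.2% (1.43, interval 1.07 to 1.90). At promoters without a peak the shares in divergent and other promoters were 10.1% and 22.6% for the SOX core, 2.09% and 3.83% for AP-1 and 9.95% and 3.59% for YY1.

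The first divergent sites of the list were those at *Tmie*, 2310003F16Rik and 4933427G17Rik. The peak near *Tmie*, a gene of hair cell mechanotransduction, was centred at -878 bp from its start, past the start of *Als2cl*, which lay 61 bp away on the opposite strand, and it held 1 AP-1 motif and no SOX core. The peak of 2310003F16Rik was centred at -74 bp, with *Serinc4*, a serine incorporator gene, 343 bp away, and held 1 SOX core, 2 GC boxes and 1 ETS motif. That of 4933427G17Rik was centred at -55 bp, with *Cdr2*, which encodes a cerebellar antigen, 197 bp away, and held 1 SOX core at 4 bp from the centre. The stretch at *Tmie* is printed with the AP-1 motif in capitals, and *Tmie* runs on the minus strand.
*Tmie*, chr9:110783435-110783554, plus strand: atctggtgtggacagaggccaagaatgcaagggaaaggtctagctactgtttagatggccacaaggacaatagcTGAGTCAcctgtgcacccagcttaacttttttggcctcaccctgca

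Gene families were read against all protein-coding genes, of which 4403 of 22208 (19.8%) had a SOX11-only site in a promoter. Among the 9566 genes with at least 1 high-CpG start the share was 34.8%, and among the 12642 others it was 8.48%. Families were defined by patterns of gene symbols, so a few genes with a like symbol are included. Of 45 families with 10 or more genes, 25 had a share above that of all genes, and the Wilson interval of 21 lay wholly above it. Families were not tested, and neighbouring genes of a family are not independent.

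Families of basic cell functions had the highest shares. Of 34 aminoacyl tRNA synthetase genes, whose enzymes load amino acids onto tRNA, 18 had a site (52.9%, interval 36.7 to 68.5%), among them *Vars*, *Yars2*, *Gars* and *Cars2*. Peroxisomal and mitochondrial import genes had 19 of 38 (50.0%), with *Pex26*, *Timm10*, *Tomm7* and *Tomm34*, and subunits of Mediator, which links activators to RNA polymerase II, had 15 of 30 (50.0%), with *Med16*, *Med14*, *Med20* and *Med11*. Genes with symbols of RNA polymerase II, TAF or GTF2 proteins had 19 of 41 (46.3%), with *Gtf2ird2*, *Taf3*, *Gtf2a1* and *Taf5*. Proteasome genes had 23 of 50 (46.0%), with *Psma6*, *Psmc3*, *Psmb6* and *Psmg2*. These families are rich in high-CpG starts, from 62.0 to 87.8%. Among their genes with such a start, 13 of 23 synthetase genes had a site (56.5%), as had 12 of 24 import and 12 of 24 Mediator genes (50.0% each). The counts were 16 of 36 for the polymerase group (44.4%) and 17 of 31 for the proteasome (54.8%), beside 34.8% of all such genes. These counts are small, and the 5 families were picked for their high share. A SOX core, found in 30.4% of all sites, was present at 4 of 18 synthetase, 3 of 19 import, 4 of 15 Mediator, 8 of 19 polymerase group and 8 of 23 proteasome genes, counted in the earliest site of each gene.

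The lowest shares were in families of restricted expression. None of 330 vomeronasal receptor genes, 51 defensin genes and 19 Wnt ligand genes had a site, and 3 counts of the total, the limit that a count of 0 allows, come to 0.909%, 5.88% and 15.8% (Wilson upper limits 1.15%, 7.0% and 16.8%). Of 1087 olfactory receptor genes 1 had a site (*Olfr536*), and of 39 Hox genes, which pattern the body axis, 1 had a site (*Hoxc10*). The receptor and defensin families had 1 gene with a high-CpG start in all, but 12 of the Wnt and 19 of the Hox genes had one, and of these 0 and 1 had a site. The *Hoxc10* peak, on chromosome 15 from 102796842 to 102797099, held 1 SOX core and 1 GC box.

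**Figure D5:**
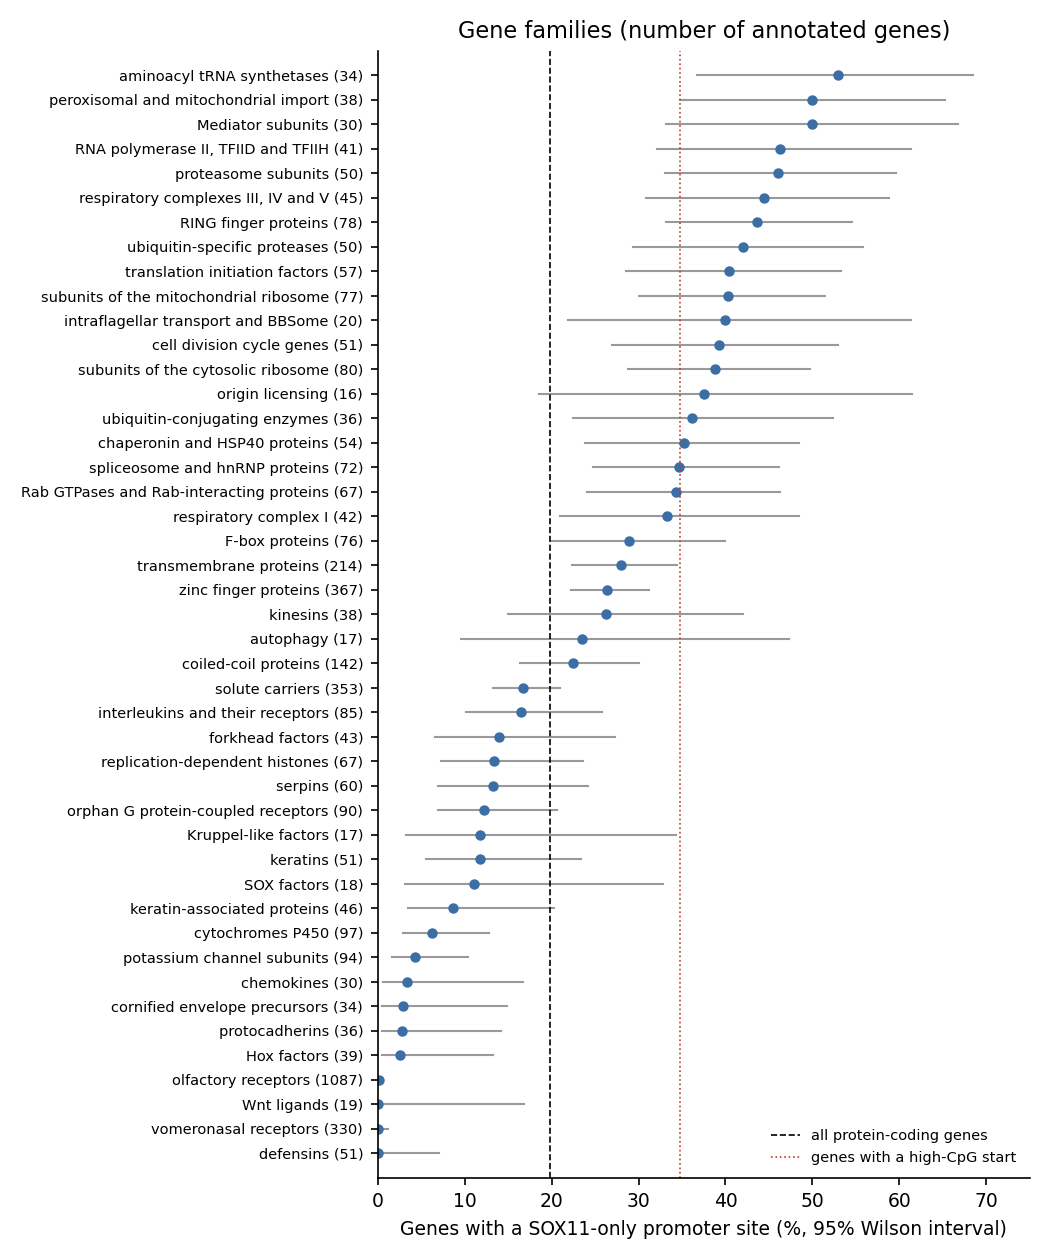
Share of genes with a SOX11-only promoter site (%) in 45 families with 10 or more annotated genes (number of genes in brackets), with 95% Wilson intervals; the dashed line marks all protein-coding genes (19.8%) and the dotted line genes with a high-CpG start (34.8%). Aminoacyl tRNA synthetases are highest at 52.9%, and vomeronasal receptors, defensins and Wnt ligands are at 0.

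Among genes of the epidermis, adhesion genes had a site at 10 of 29 genes (34.5%, interval 19.9 to 52.7%). Of the 12 with a high-CpG start 4 had a site (33.3%), near the share of all such genes, and of the 17 without a high-CpG start 6 had a site (35.3%), beside 8.48% of all genes without one. The sites were at the integrin genes *Itga6* and *Itgb4*, whose products anchor basal keratinocytes to the basement membrane, at the laminin 332 genes *Lama3* and *Lamb3*, at *Col17a1*, *Dst* and *Cd151*, which encode further parts of hemidesmosomes, and at the junction genes *Jup*, *Ctnnb1* and *Pkp3*. The earliest in the list was *Itga6*, at row 2217, on chromosome 2 from 71624841 to 71625098, centred at -16 bp from the start with 6 GC boxes and no SOX core. The *Itgb4* peak, on chromosome 11 from 115836139 to 115836396, held 5 GC boxes and 1 AP-1 motif.

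AP-1 motifs were present in 4 of the 10 adhesion sites, at *Lamb3*, *Itgb4*, *Lama3* and *Pkp3*, beside 6.33% of all sites, and a SOX core in 2, at *Lamb3* and *Col17a1*. The AP-1 count was noticed after the values were seen and was not tested. Of the 10 adhesion sites 6 lay at low-CpG promoters, beside 11% of all sites. Other families with many such sites varied, with AP-1 at 0 of 8 serpin, 5 of 14 interleukin and 5 of 11 orphan G protein-coupled receptor genes. Stretches around the AP-1 motif, in capitals, are given for *Lamb3* and *Pkp3*, both on the plus strand. They are the earliest of the 4 adhesion sites in list order that held the motif outside annotated exons.
*Lamb3*, chr1:195127592-195127641, plus strand: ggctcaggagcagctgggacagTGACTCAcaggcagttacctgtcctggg
*Pkp3*, chr7:148264956-148265005, plus strand: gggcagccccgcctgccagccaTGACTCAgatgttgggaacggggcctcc

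Of 31 epidermal transcription factor genes 8 had a site (25.8%, interval 13.7 to 43.2%), and of the 25 with a high-CpG start 7 had one (28.0%), near the share of all such genes. They were *Tead2* and *Tead3*, factors of the Hippo pathway, *Tcf7l1* and *Tcf7l2*, factors of Wnt signalling, *Ovol1*, *Ets1*, *Prdm1* and *Grhl1*. The *Tead2* peak, on chromosome 7 from 52471029 to 52471286 in row 2613, was centred at -3 bp from the start and held 1 SOX core and 3 GC boxes, and a SOX4 peak lay 577 bp away. *Tcf7l2*, on chromosome 19 from 55816017 to 55816274, held 2 SOX cores and 6 GC boxes, and *Ovol1*, a zinc finger regulator of epidermal differentiation, held 1 SOX core in a peak centred at -503 bp. No SOX core was present in the other 5.

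Genes of the cytoskeleton and of cell migration had a site at 14 of 52 genes (26.9%, interval 16.8 to 40.3%), beside 19.8% of all genes. Of the 41 with a high-CpG start 10 had one (24.4%), beside 34.8% of all such genes. The 14 were *Actr2*, *Actr3* and *Arpc5* of the ARP2/3 complex, which nucleates branched actin, the small GTPase gene *Rac1*, *Wasl*, *Diap1*, *Tpm1*, *Tpm3*, *Msn*, *Zyx*, *Fblim1*, *Vim*, *Stmn1* and *Tuba1b*. A SOX core was present in 3 of the 14, at *Vim*, *Stmn1* and *Fblim1*, and a GC box in 10, beside 30.4% and 65.4% of all sites. The *Vim* peak, on chromosome 2 from 13495106 to 13495363, was centred at -319 bp from the start of this intermediate filament gene and held 1 SOX core and 2 AP-1 motifs. *Stmn1*, a microtubule-destabilising protein gene, had 2 SOX cores in a peak centred at -772 bp, and *Rac1* had 6 GC boxes and no SOX core in a peak at -49 bp.

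Of 33 cell cycle genes 12 had a site (36.4%, interval 22.2 to 53.4%), as had 11 of the 28 with a high-CpG start (39.3%), close to the share of such genes in all. *Mdm2* and *Cdk4* stood earliest, at rows 3588 and 3897, and *Ccnb1*, the cyclin of mitotic entry, stood last at row 20529. The sites at *Cdk4*, *Ccnb2* and *Cdk2* and the earliest site at *Mdm2* held a SOX core. Those at *Cdk1*, *Plk1*, *Cdc20*, *Ccne1*, *Ccna2*, *Ccnb1*, *Cdkn2a* and *Rb1* held none. Of 19 listed genes of epidermal terminal differentiation 3 had a site (15.8%, interval 5.52 to 37.6%), beside 19.8% of all genes, and none of the 3 had a high-CpG start. They made up 16.7% of the 18 genes of the list without such a start, beside 8.48% of all such genes. The sites were at *Cdsn* with 1 SOX core, *Evpl* with 3 GC boxes and *Ivl*, involucrin, with 1 AP-1 motif. A separate family of 34 cornified envelope precursor genes, defined by symbol pattern, had a lower share. None of its genes had a high-CpG start, and 1 had a site (2.94%, interval 0.521 to 14.9%), beside 8.48% of all genes without one. That gene was *Sprr2j-ps*, by its symbol a pseudogene. Its peak was centred at -632 bp and held no SOX core, AP-1 motif or GC box.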

How the data were processed

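The 2 lists analysed held only peak coordinates as deposited by the authors (chromosome, start and end), with no count, signal or other measured value. Per the methods of the study, single-end reads were mapped to mm9 with Bowtie2, duplicates were removed with Picard, HOMER called the peaks in its factor style, and bedtools took out blacklisted regions. Versions, thresholds and the control given to HOMER are not given in the sources used here.

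Protein-coding transcription starts came from GENCODE M1 and sequence from the NCBIM37 genome, the same build as mm9. Controls were 258 bp windows 50 bp upstream of the 5′-most start of 16744 genes without a peak in any promoter, on chromosomes 1 to 19 and X. Motifs were searched on both strands without mismatch with Python 3.11.15 and pysam 0.24.0. Odds ratios were Mantel-Haenszel estimates with Robins-Breslow-Greenland intervals over strata of 2 points of G and C, scipy 1.17.1 gave Fisher's exact tests, adjustment was Benjamini-Hochberg (statsmodels 0.14.6), and all tests were two-sided. Shares carry 95% Wilson intervals. CpG classes came from sequence, with no island track. The overlap and promoter rules, motif search and odds ratios were tested on simulated data.

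The members, motifs, lists and alternatives were chosen with earlier results of these data known. Named sites were the first 5 and last 2 in list order, the first 3 with a central SOX core, the 3 with most GC boxes (1 of which is not reported here), the first 3 divergent ones, the genes with most sites, examples of the 5 highest and 5 lowest families, and the genes of 5 lists. The defensin symbol pattern was corrected after it had caught *Def6*, which is no defensin. Of the listed symbols, 1 of 53 in the cytoskeleton list and 2 of 33 in the transcription factor list were not matched. Expression was not analysed here, so the windows without a peak include promoters of silent genes.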

Additional observations from a re-analysis of the deposited data

How the results depend on the processing

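No paired analysis was possible because both replicates of a factor stand in 1 deposited list, and for the same reason no replicate could be left out. For 12 results 60 alternatives were run, 13 of them chosen after seeing the data. Of these, 52 kept the direction and the side of the threshold or, for the number of sites, stayed within 1.5 times. The number of sites ranged from 3870 to 5104. The odds ratio of the GC box over promoters without a peak was 0.880 in the central 100 bp, 1.03 among high-CpG promoters and 1.04 for the longer box CCCCGCCC. Against shared promoter sites it was 1.40 in the central 100 bp, 1.49 for shared peaks past the first 10% of the list and 1.37 within bins of list position. The odds ratio for divergent promoters was 0.684 among high-CpG promoters and 1.09 for starts within 500 bp. It was 1.20 with the 5′-most start for both sides and 1.15 with the start of most transcripts for both. For sites centred within 100 bp of the start it was 1.27. The cause of these changes was not tested. With control windows at the start shared by most transcripts, the odds ratios of the SOX core, GC box and AP-1 motif were 3.49, 1.32 and 2.80. The odds ratio of the SOX core, 3.50, was 5.36 in the central 100 bp, 2.04 for the later part of the list, 1.98 for CATTGT alone, and 1.63 for the longer SOX motif with 1 mismatch. That of AP-1, 2.81, was 1.61 among high-CpG promoters and 1.41 for the longer motif with 1 mismatch. Against shared sites the SOX odds ratio, 0.128, was 0.275 for the longer motif with 1 mismatch, 0.305 for shared peaks past the first 10% of the list and 0.437 within bins of list position. Within strata of G and C content the odds ratios against peaks in and between genes moved from 0.275 and 0.288 to 0.592 and 0.861 for the SOX core and from 0.136 and 0.106 to 0.343 and 0.266 for AP-1. The depth of the libraries is unknown, and a site without a called SOX4 peak cannot be told apart from one at which SOX4 stayed under the threshold of the peak caller.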
